A study of Homo sapiens with 3 samples.

Results

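The genes of MHC class I antigen presentation were followed in PC3 cells after depletion of USP16, a deubiquitinase. The set held 9 genes chosen by name: the class I heavy chains HLA-B, HLA-C, HLA-E and HLA-F, their light chain B2M, the peptide transporter subunits TAP1 and TAP2, the loading factor TAPBP and the transcriptional regulator NLRC5. They are 9 of 60930 entries in the expression table, and all 9 were among the 13637 genes that averaged 1 TPM or more over the libraries, called the tested genes here. TPM is the number of transcripts of a gene among a fixed total, after correction for transcript length. PC3 is an established, androgen-independent line of human prostate cancer cells. The cells carried a pLKO.1 vector, selected with puromycin, either as a vector control (shCON, which the labels also call RFP) or with 1 of 2 hairpins against USP16 (shUSP16#1 and shUSP16#2). Total RNA was sequenced from 1 library of each of the 3 lines. No condition had a replicate, so no value below has an error and no difference was tested. The table gives TPM only, which keeps no record of depth, so no counting interval could be set.

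Class I molecules carry short peptides from proteins made inside the cell to its surface, where cytotoxic T cells read them. The peptides are cut by the proteasome, moved into the endoplasmic reticulum by the TAP1-TAP2 transporter, trimmed there, and loaded by tapasin and its partner chaperones onto a heavy chain paired with beta-2-microglobulin. Interferon signalling and the regulator NLRC5 raise transcription of most of these genes together, and loss of class I from tumour cells is a known route of escape from T cells.

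USP16 itself was at 19.92 TPM in shCON, 3.5 TPM in shUSP16#1 and 1.08 TPM in shUSP16#2, so the targeted transcript was lower in both hairpin libraries and lowest with shUSP16#2. The epithelial keratins of the line were high in every library, with KRT8 at 622 to 748 TPM and KRT18 at 778 to 947 TPM. Of 9 leukocyte markers, 8 were under 1 TPM in every library, including the pan-leukocyte gene PTPRC at 0.03 to 0.14 TPM, and the B cell gene MS4A1 was at 0. The exception was CD68, a lysosomal protein gene, at 31.69 to 42.24 TPM. The prostate markers KLK2 and KLK3 were at 0 in the 3 libraries.

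The promoters of these genes are shown first, because the genes are known to share control elements close to their start sites. RefSeq promoter sequences (GRCh38.p14) were at hand for 7 of the 9 genes and not for HLA-E and NLRC5. TAP1 had 2 entries and the first was used, so its stretch and match positions rest on that start. Each line below gives 130 bases of the gene's own strand, 5′ to 3′. Motifs were searched in the whole entries, of which each line is a stretch. Capitals mark matches to a motif of interferon regulatory factors (AA, any 2 bases, GAAA), to its longer form (GAAA, any 2 bases, GAAA) and to the NF-kB consensus, on either strand.
HLA-B (chr6:31357237-31357366, minus strand): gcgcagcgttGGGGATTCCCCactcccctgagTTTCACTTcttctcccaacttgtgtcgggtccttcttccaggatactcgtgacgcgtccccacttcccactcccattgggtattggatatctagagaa
HLA-C (chr6:31272145-31272274, minus strand): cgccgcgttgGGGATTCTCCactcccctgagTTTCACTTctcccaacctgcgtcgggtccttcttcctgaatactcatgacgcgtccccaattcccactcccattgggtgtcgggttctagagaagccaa
HLA-F (chr6:29723268-29723397, plus strand): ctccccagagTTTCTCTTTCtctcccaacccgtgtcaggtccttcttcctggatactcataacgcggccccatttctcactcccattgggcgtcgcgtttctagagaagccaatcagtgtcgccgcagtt
B2M (chr15:44711363-44711492, plus strand): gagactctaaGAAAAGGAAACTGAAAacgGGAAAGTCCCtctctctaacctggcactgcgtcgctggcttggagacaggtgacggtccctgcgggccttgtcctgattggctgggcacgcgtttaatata
TAP1 (chr6:32853719-32853848, minus strand): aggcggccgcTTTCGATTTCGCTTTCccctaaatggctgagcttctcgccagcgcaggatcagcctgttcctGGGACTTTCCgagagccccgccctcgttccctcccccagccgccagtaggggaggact
TAP2 (chr6:32838690-32838819, minus strand): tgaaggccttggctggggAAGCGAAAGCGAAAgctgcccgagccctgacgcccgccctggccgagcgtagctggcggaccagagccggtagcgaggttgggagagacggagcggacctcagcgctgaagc
TAPBP (chr6:33314029-33314158, minus strand): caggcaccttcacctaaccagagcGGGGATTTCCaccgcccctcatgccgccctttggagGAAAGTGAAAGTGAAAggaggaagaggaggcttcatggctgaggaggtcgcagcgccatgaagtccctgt

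The shorter interferon regulatory factor motif was found in 7 of 7 promoter entries, and in 23.2% of the 27305 promoter entries of the same length in the RefSeq table. The longer form overlaps the shorter one and was found in HLA-F, B2M, TAP1, TAP2 and TAPBP, 5 of 7, against 3.65% of all entries. The NF-kB consensus was found in HLA-B, HLA-C, B2M, TAP1 and TAPBP, against 10.8% of all entries. The letters TGACG, the core of a cyclic AMP response element, occurred in HLA-B, HLA-C, B2M and TAP2, against 25.0% of all entries, and CCAAT occurred in HLA-B, HLA-C, HLA-F, B2M and TAP1, against 35.7%. The CCAAT match of TAP1 lies outside the stretch shown. In HLA-B and HLA-C the NF-kB match and the interferon motif stood in the same order, with the NF-kB match farther upstream, and in HLA-F the NF-kB consensus had no match in this window. These matches describe letters in a window and do not show that a factor was bound in PC3 cells.

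Under shUSP16#2, transcripts of HLA-B, HLA-C, HLA-F and NLRC5 were at least 1.5-fold higher than in shCON on the log2(TPM + 1) scale, and none of the 9 genes was at least 1.5-fold lower. Under shUSP16#1, 0 of the 9 genes passed 1.5-fold in either direction. Among all tested genes, 8.72% were at least 1.5-fold higher and 23.2% lower under shUSP16#1, and 7.32% were higher and 38.5% lower under shUSP16#2. With the median of all genes subtracted from each change, these shares became 14.3% and 14.3% under shUSP16#1 and 18.6% and 21.4% under shUSP16#2, and 3 and 5 of the 9 genes were then past 1.5-fold higher. The 9 genes had a median change of 0.12 under shUSP16#1 and 0.38 under shUSP16#2, on a scale where the median of all tested genes was -0.17 and -0.37. In each comparison 8 of the 9 genes lay above the median of all tested genes, as 6818 of the 13637 tested genes do by definition. B2M was above it by only 0.003 under shUSP16#1 and 0.05 under shUSP16#2, and TAP2 by 0.08 under shUSP16#2. The 9 genes were chosen with earlier results of these data known. The hairpin comparisons share the shCON library, so they are not independent of each other. All changes given are differences of log2(TPM + 1), which understate the change of genes near or under 1 TPM, and in RNA from a whole culture a change in the share of expressing cells and a change per cell cannot be told apart.

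**Figure D1:**
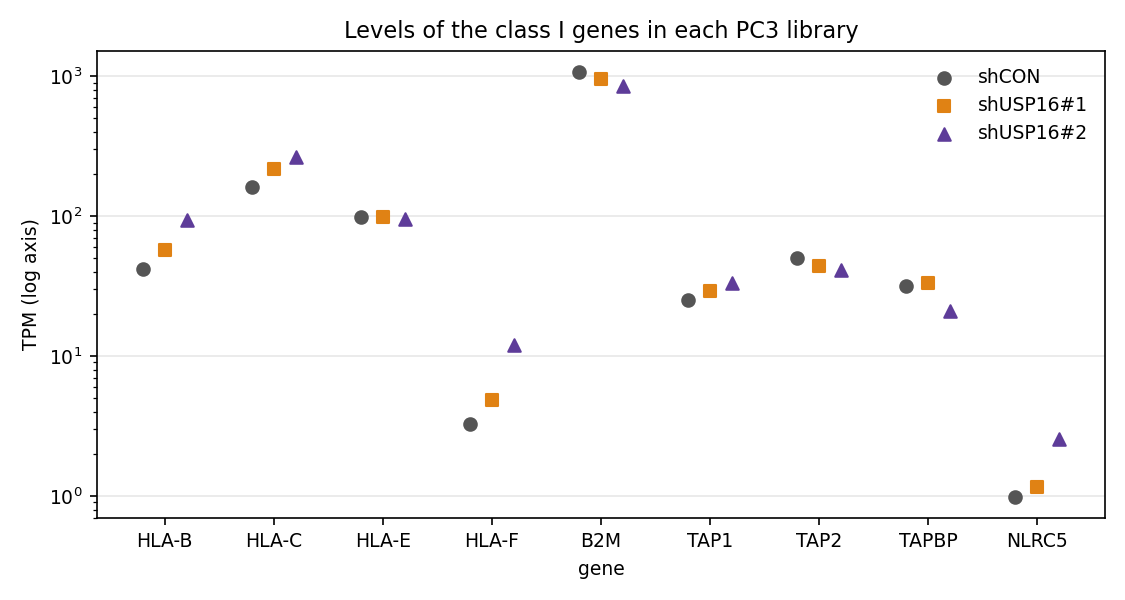
TPM (log axis) of the 9 class I genes in the shCON (circles), shUSP16#1 (squares) and shUSP16#2 (triangles) libraries, with 1 point per library. B2M was the highest of the 9 in every library, and the points of HLA-B, HLA-C, HLA-F, TAP1 and NLRC5 stand in the order shCON, shUSP16#1, shUSP16#2 from low to high.

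TPM is scaled by transcript length, so levels can be set side by side between genes. In shCON the order from high to low was B2M, HLA-C, HLA-E, TAP2, HLA-B, TAPBP, TAP1, HLA-F and NLRC5. In shUSP16#1 HLA-B stood above TAP2, and in shUSP16#2 TAP1 also stood above TAPBP, while the other places were the same. Which neighbours in this order differ beyond the spread of replicates cannot be said. The summed level of the 9 genes was 1483.72 TPM in shCON, 1437.83 TPM in shUSP16#1 and 1418.85 TPM in shUSP16#2, most of it B2M.

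HLA-B (ENSG00000234745, chr6:31269491-31357188, minus strand, GRCh38 annotation of GENCODE 29) encodes a heavy chain that presents peptides to T cells and is a ligand for some receptors of natural killer cells. Its level was 42.07 TPM in shCON, 57.1 TPM in shUSP16#1 and 93.48 TPM in shUSP16#2. The TPM ratio to shCON was 1.36 and 2.22, and the log2 change was 0.43 under shUSP16#1 and 1.13 under shUSP16#2. Counted by level among the tested genes, HLA-B stood at place 3100 in shCON, 2152 in shUSP16#1 and 1335 in shUSP16#2. Its change was higher than that of 86.4% of tested genes under shUSP16#1 and 97.9% under shUSP16#2.

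HLA-C (ENSG00000204525, chr6:31268749-31272130, minus strand), which also presents peptides and is the main class I ligand of killer cell inhibitory receptors, was the most abundant of the 4 heavy chains. It was at 160.3 TPM in shCON, 215.95 TPM in shUSP16#1 and 263.3 TPM in shUSP16#2. The log2 change was 0.43 and 0.71, above 86.2% and 94.7% of tested genes. HLA-B and HLA-C had the same change under shUSP16#1 to 2 decimals, and under shUSP16#2 the change of HLA-B was the larger. The ratio of HLA-C to HLA-B was therefore close in shCON (3.81) and shUSP16#1 (3.78) and lower in shUSP16#2 (2.82).

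HLA-E (ENSG00000204592, chr6:30489467-30494205, plus strand) encodes a heavy chain that mainly displays leader peptides of other class I chains to natural killer cell receptors. It was at 97.97 TPM in shCON, 98.41 TPM in shUSP16#1 and 94.98 TPM in shUSP16#2. These levels lie close together, with log2 changes of 0.01 and -0.04, and their signs turned (-0.03 and 0.03) when TPM was rescaled over protein-coding genes. The same changes stood above those of 62.7% and 67.9% of tested genes, whose median was lower than shCON in each comparison.

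HLA-F (ENSG00000204642, chr6:29722775-29738528, plus strand), a less polymorphic heavy chain found on activated lymphocytes and as open conformers, was the lowest of the 4 heavy chains. Its level was 3.25 TPM in shCON, 4.84 TPM in shUSP16#1 and 11.93 TPM in shUSP16#2. The log2 change was 0.46 under shUSP16#1 and 1.61 under shUSP16#2, the largest of the 9 genes in each comparison. It stood above 98.9% of tested genes under shUSP16#2. Exons of HLA-F share 535 bases with the antisense gene HLA-F-AS1, which was at 1.96 TPM in shCON, 5.14 TPM in shUSP16#1 and 4.27 TPM in shUSP16#2, and whether the counting used strand is not given in the sources used here. Its exons also share 257 bases with RPL23AP1 on the opposite strand, which was at 1.3 TPM in shCON, 1.41 TPM in shUSP16#1 and 2.97 TPM in shUSP16#2. Reads of HLA-F and these genes may therefore not be separable.

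Added together, the 4 heavy chains came to 303.59 TPM in shCON, 376.3 TPM in shUSP16#1 and 463.69 TPM in shUSP16#2. Their median change was 0.43 under shUSP16#1 and 0.92 under shUSP16#2. HLA-B, HLA-C and HLA-F were higher than shCON in both hairpin libraries and HLA-E differed little. The ratio of HLA-F to HLA-E was 0.0332 in shCON, 0.0492 in shUSP16#1 and 0.126 in shUSP16#2.

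B2M (ENSG00000166710, chr15:44711487-44718877, plus strand) encodes the light chain shared by all class I molecules and needed for their folding and transport to the surface. It was at 1071.84 TPM in shCON, 953.83 TPM in shUSP16#1 and 857.24 TPM in shUSP16#2. The log2 change was -0.17 and -0.32, and less the all-gene median it was 0.00 and 0.05. B2M thus stood with the bulk of genes, while HLA-B, HLA-C and HLA-F stood above it. There were 3.53 B2M transcripts per heavy chain transcript of these 4 genes in shCON, 2.53 in shUSP16#1 and 1.85 in shUSP16#2. Other class I heavy chains were not part of this sum. The ratio was not adjusted for GC content, which was 40.6% in B2M and 59.4% at the median of the heavy chains. Set against genes of like GC content, as described below, B2M was at 0.45 under shUSP16#1 and 0.69 under shUSP16#2. The heavy chain median was then 0.22 and 0.76. On this scale B2M was above the heavy chain median under shUSP16#1 and below it under shUSP16#2. The B2M values depend on the transcripts used for GC content. The part of GC content in the ratio was not tested.

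TAP1 (ENSG00000168394, chr6:32845209-32853978, minus strand) and TAP2 (ENSG00000204267, chr6:32821833-32838780, minus strand) encode the subunits of the transporter that brings peptides into the endoplasmic reticulum. TAP1 was at 25.19 TPM in shCON, 29.32 TPM in shUSP16#1 and 33.13 TPM in shUSP16#2, with log2 changes of 0.21 and 0.38, or 0.38 and 0.75 less the all-gene median. TAP2 was at 50.55 TPM in shCON, 43.72 TPM in shUSP16#1 and 41.27 TPM in shUSP16#2, with log2 changes of -0.21 and -0.29. The subunits of the transporter thus had opposite signs of change in each comparison, although less that median TAP2 was at -0.03 and 0.08, so that TAP1 and TAP2 then had the same sign under shUSP16#2. The TAP2 to TAP1 ratio was 2.01 in shCON, 1.49 in shUSP16#1 and 1.25 in shUSP16#2.

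The level of TAP2 is uncertain, because 2064 bases of its exons are also annotated to AL669918.1 on the same strand, and 35.1% of its 100-base windows occur in another gene. AL669918.1 was at 18.82 TPM in shCON, 13.13 TPM in shUSP16#1 and 13.35 TPM in shUSP16#2. The sum of the pair was 69.37 TPM in shCON, 56.85 TPM in shUSP16#1 and 54.62 TPM in shUSP16#2, so the sum was lower than shCON in both hairpin libraries, as TAP2 alone was. For the other 8 genes at most 0.60% of such windows occurred elsewhere on the strand of the transcript. Opposite-strand overlaps are not in that share, and TAP1 shares 456 exon bases with PSMB8-AS1, which was at 1.0 TPM in shCON, 1.31 TPM in shUSP16#1 and 1.7 TPM in shUSP16#2. HLA-B shares 542 exon bases with AL671883.2 in the same way, which was under 1 TPM in every library. On the same strand, HLA-B and HLA-C share 35 exon bases, and their annotated spans overlap.

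TAPBP (ENSG00000231925, chr6:33299694-33314387, minus strand) encodes tapasin, which holds an empty class I molecule next to the transporter and helps select stable peptides. Its level was 31.56 TPM in shCON, 33.5 TPM in shUSP16#1 and 20.95 TPM in shUSP16#2. The log2 change was 0.08 under shUSP16#1 and -0.57 under shUSP16#2, where the TPM ratio to shCON was 0.664. TAPBP was the only 1 of the 9 genes with a change below the median of all tested genes under shUSP16#2, and on the log2(TPM + 1) scale it lay just short of 1.5-fold lower. With a pseudocount of 0.1 it was past 1.5-fold lower.

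NLRC5 (ENSG00000140853, chr16:56989485-57083531, plus strand) encodes the transactivator of class I promoters. It was the lowest of the 9 genes, at 0.99 TPM in shCON, 1.16 TPM in shUSP16#1 and 2.57 TPM in shUSP16#2. The log2(TPM + 1) change was 0.12 and 0.84, and the TPM ratio to shCON was 1.17 and 2.60. The shUSP16#2 library stood apart from the other two for this gene.

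**Figure D2:**
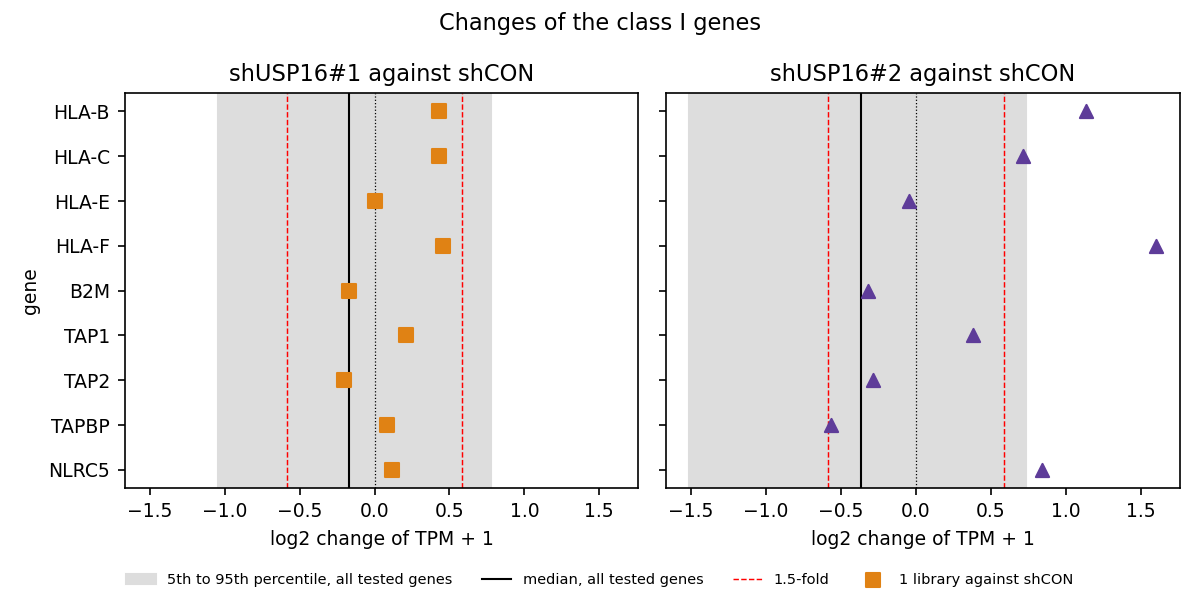
Change in log2(TPM + 1) of each class I gene, shUSP16#1 against shCON on the left (squares) and shUSP16#2 against shCON on the right (triangles), 1 library against 1. The grey band runs from the 5th to the 95th percentile of all tested genes (-1.04 to 0.78 on the left and -1.51 to 0.74 on the right), the black line is their median and the dashed lines are 1.5-fold. HLA-F, HLA-B and NLRC5 lie to the right of the band under shUSP16#2.

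The hairpin libraries can be compared without shCON. From shUSP16#1 to shUSP16#2 the log2 level was higher by 1.15 for HLA-F, 0.72 for NLRC5, 0.70 for HLA-B, 0.28 for HLA-C and 0.17 for TAP1. It was lower for TAPBP (-0.65), B2M (-0.15), TAP2 (-0.08) and HLA-E (-0.05). The median difference was 0.17 over the 9 genes and -0.21 over all tested genes, whose 5th to 95th percentile ran from -0.90 to 0.45. HLA-F, NLRC5 and HLA-B exceeded that range. Residual USP16 was lower in shUSP16#2, but with 1 library of each, hairpin sequence, USP16 level and library cannot be told apart.

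Upstream of the transporter, the peptide supply list held 7 genes, with medians of 0.05 and 0.16. PSMB8, a catalytic subunit of the immunoproteasome, was at 59.34 TPM in shCON, 82.25 TPM in shUSP16#1 and 93.04 TPM in shUSP16#2. PSMB9, another such subunit, was at 13.2 TPM in shCON, 16.02 TPM in shUSP16#1 and 26.7 TPM in shUSP16#2. Its RefSeq start lies 488 bases from that of the TAP1 entry used here, in divergent orientation. PSMB8 and PSMB9 were past 1.5-fold higher under shUSP16#2, with log2 changes of 0.64 and 0.96, where 7.32% of all tested genes were. PSMB10 changed by -0.14 and 0.16. The constitutive counterparts PSMB5, PSMB6 and PSMB7 lay between -0.06 and 0.10 in both comparisons. The ratio of PSMB8 to PSMB5 was 0.197 in shCON, 0.255 in shUSP16#1 and 0.289 in shUSP16#2, and that of PSMB9 to PSMB6 was 0.0357, 0.0452 and 0.0746 in the same order.

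The proteasome activator subunit gene PSME1 changed by 0.48 and 0.54, and its partner PSME2 by 0.05 and 0.12. The aminopeptidase genes that trim peptides in the endoplasmic reticulum were lower. ERAP1 was at 16.45 TPM in shCON, 8.97 TPM in shUSP16#1 and 8.4 TPM in shUSP16#2, and ERAP2 was at 5.06, 1.88 and 1.6 TPM. ERAP1 and ERAP2 were the 2 genes of the list past 1.5-fold lower in each comparison, with ERAP2 at -1.07 and -1.22. Of all tested genes, 23.2% and 38.5% were past that fold lower.

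Of 4 loading chaperone genes, 3 were tested, and they had medians of -0.51 and -0.65. Calreticulin (CALR) was at 1755.17 TPM in shCON, 1341.95 TPM in shUSP16#1 and 1317.1 TPM in shUSP16#2. Calnexin (CANX), which binds newly made heavy chains, was at 191.35, 82.72 and 74.7 TPM in the same order, with log2 changes of -1.20 and -1.35. The oxidoreductase PDIA3, a tapasin partner, changed by -0.51 and -0.65. All 3 stood below the median of all tested genes in both comparisons, in contrast to the heavy chains.

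Known regulators of class I transcription formed a list of 13 genes with medians of -0.17 and -0.54. Under shUSP16#1, 2 were past 1.5-fold higher and 1 lower, and under shUSP16#2, 1 was higher and 6 were lower. Of all tested genes, 8.72% were higher and 23.2% lower under shUSP16#1, and 7.32% and 38.5% under shUSP16#2. IRF9, the DNA-binding part of the type I interferon complex, was at 11.11 TPM in shCON, 27.3 TPM in shUSP16#1 and 23.97 TPM in shUSP16#2. Its partner STAT2 changed by 0.68 and 0.33. IRF1 changed by 0.24 and -0.31. Of the enhanceosome subunits that NLRC5 works with, RFX5 changed by -0.48 and -0.54, RFXAP by -0.55 and -0.68 and RFXANK by 0.14 and 0.03. The CCAAT-binding subunit NFYB was at 10.09 TPM in shCON, 6.96 TPM in shUSP16#1 and 3.23 TPM in shUSP16#2. NFKB1 changed by -0.99 and -1.08 and RELA by 0.03 and -0.01.

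Of 7 interferon receptor and kinase genes, 6 were tested, with medians of -0.44 and -0.66 and 3 genes past 1.5-fold lower in each comparison. Of all tested genes, 23.2% and 38.5% were lower by as much. Set against genes of like GC content, as described below, the medians of this list were 0.01 and 0.01. The receptor chain IFNAR1 was at 21.88 TPM in shCON, 10.5 TPM in shUSP16#1 and 7.68 TPM in shUSP16#2. The interferon gamma receptor chain IFNGR1 was at 21.33, 13.24 and 10.13 TPM in the same order. The kinase JAK1 changed by -0.78 and -0.90. IFNGR2 changed by 0.48 and -0.11 and the kinase TYK2 by 0.32 and 0.10. No tested gene of this list was past 1.5-fold higher.

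Among class I-like molecules, 4 of 7 genes were tested, with medians of -0.38 and 0.02. FCGRT, the heavy chain of the neonatal Fc receptor, which also pairs with B2M, was at 23.42 TPM in shCON, 37.5 TPM in shUSP16#1 and 49.46 TPM in shUSP16#2. The stress ligands MICA and MICB, which bind an activating receptor and do not pair with B2M, changed by -0.66 and -0.65 under shUSP16#1 and by -0.11 and -0.33 under shUSP16#2. MR1, which presents vitamin metabolites, changed by -0.11 and 0.15.

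**Figure D3:**
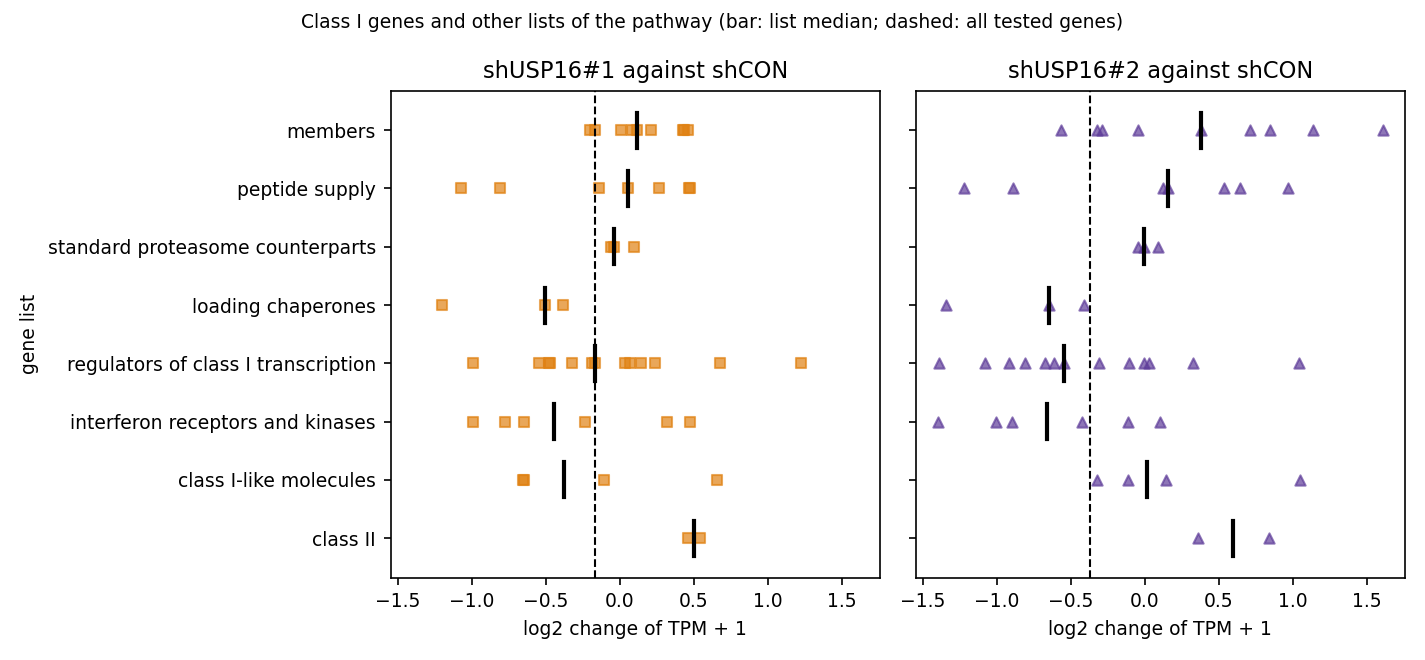
Change in log2(TPM + 1) of single genes (points) in the class I set and in the other lists of the pathway, with each list's median (black bar) and the median of all tested genes (dashed line), for shUSP16#1 on the left and shUSP16#2 on the right. The loading chaperones lie wholly to the left of the dashed line and the class I set lies mostly to the right of it.

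The expression table annotates 312 named genes beyond the 9 to the KEGG pathway of antigen processing and presentation, of which 55 were tested. Their medians were -0.15 and -0.32, near those of all tested genes, and 29 of the 55 stood above the median of all tested genes in each comparison. Under shUSP16#2, 7 were past 1.5-fold higher and 18 lower, where 7.32% of all tested genes were higher and 38.5% lower.

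Of the 9 genes, 7 lie on the short arm of chromosome 6, between 29722775 and 33314387. The 111 other tested genes of that stretch had medians of 0.19 and 0.02, while the 552 tested genes elsewhere on chromosome 6 had medians of -0.28 and -0.58. Of the 111 neighbours, 85 were above the median of all tested genes under shUSP16#1 and 89 under shUSP16#2. Past 1.5-fold, 17 were higher and 7 lower under shUSP16#1, and 19 were higher and 14 lower under shUSP16#2. The shares of all tested genes were 8.72% and 23.2% under shUSP16#1, and 7.32% and 38.5% under shUSP16#2. The part of this neighbourhood in the changes of the 7 genes was not tested.

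Changes in these libraries were higher for genes with higher GC content in their transcripts. Over 5 equal groups of the tested genes from low to high GC content, the median change under shUSP16#1 was -0.60, -0.43, -0.19, 0.03 and 0.21, and under shUSP16#2 it was -1.04, -0.71, -0.39, -0.07 and 0.17. The class I genes had a median GC content of 57.6%, against 49.8% for all tested genes. HLA-B (60.1%), HLA-C (61.3%) and TAPBP (60.8%) were in the highest group, NLRC5 (57.6%), TAP1 (54.6%), HLA-E (58.7%) and HLA-F (56.9%) in the next, TAP2 (50.7%) in the middle and B2M (40.6%) in the lowest. The 111 chromosome 6 neighbours had a median GC content of 55.8%, against 45.9% for the rest of that chromosome.

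Each change was then set against the median change of genes of like GC content, so that 0 means level with those genes. On this scale, chosen after seeing the data, the median of the 9 genes was 0.21 under shUSP16#1 and 0.55 under shUSP16#2. Past 1.5-fold, 10.5% of tested genes with a GC content were higher and 7.6% lower under shUSP16#1, and 12.3% were higher and 10.7% lower under shUSP16#2. With all annotated transcripts of a gene pooled for GC content, none of the 9 genes passed under shUSP16#1. Under shUSP16#2, HLA-F (1.59), HLA-B (0.97), NLRC5 (0.75) and B2M (0.69) were past 1.5-fold higher and TAPBP (-0.69) was past 1.5-fold lower. HLA-C, at 0.55, and TAP1, at 0.52, fell short of it. The calls of B2M and HLA-C under shUSP16#2, and of HLA-F under shUSP16#1, depend on the transcripts used for GC content, as given below. B2M, the gene of lowest GC content in the set, thus stood above genes of like GC content, at 0.45 under shUSP16#1 too. HLA-E was at -0.09 and -0.06, close to such genes, and TAP2 was at -0.06 and 0.08.

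Under shUSP16#1, HLA-B was at 0.24, HLA-C at 0.21, HLA-F at 0.39, TAP1 at 0.25, NLRC5 at 0.03 and TAPBP at -0.11 on the same scale. The GC content of HLA-F depends on the transcript used, with a range of 45.3% to 67.5% over 15 annotated forms, and was 45.4% in the form nearest the listed length. With the all-gene median of shUSP16#1 (-0.17) kept, HLA-F was at 0.22 with pooled transcripts. It was at 0.68, past 1.5-fold higher, with the nearest form. Other genes moved with that choice too. Under shUSP16#2, with the all-gene median (-0.37) kept, B2M was at 0.32 with pooled transcripts and 0.071 with the nearest form. HLA-C was at 0.18 and 0.23 in the same order. Whether B2M and HLA-C under shUSP16#2, and HLA-F under shUSP16#1, pass 1.5-fold against genes of like GC content therefore depends on the transcript used. The neighbours on chromosome 6 had medians of 0.17 and 0.10 above genes of like GC content. The interferon receptor and kinase list was at 0.01 and 0.01 on this scale. The regulators of class I transcription were at 0.04 and -0.17, and the loading chaperones at -0.36 and -0.31. The peptide supply list was at 0.23 and 0.48, and the class I-like molecules at -0.13 and 0.41.

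**Figure D4:**
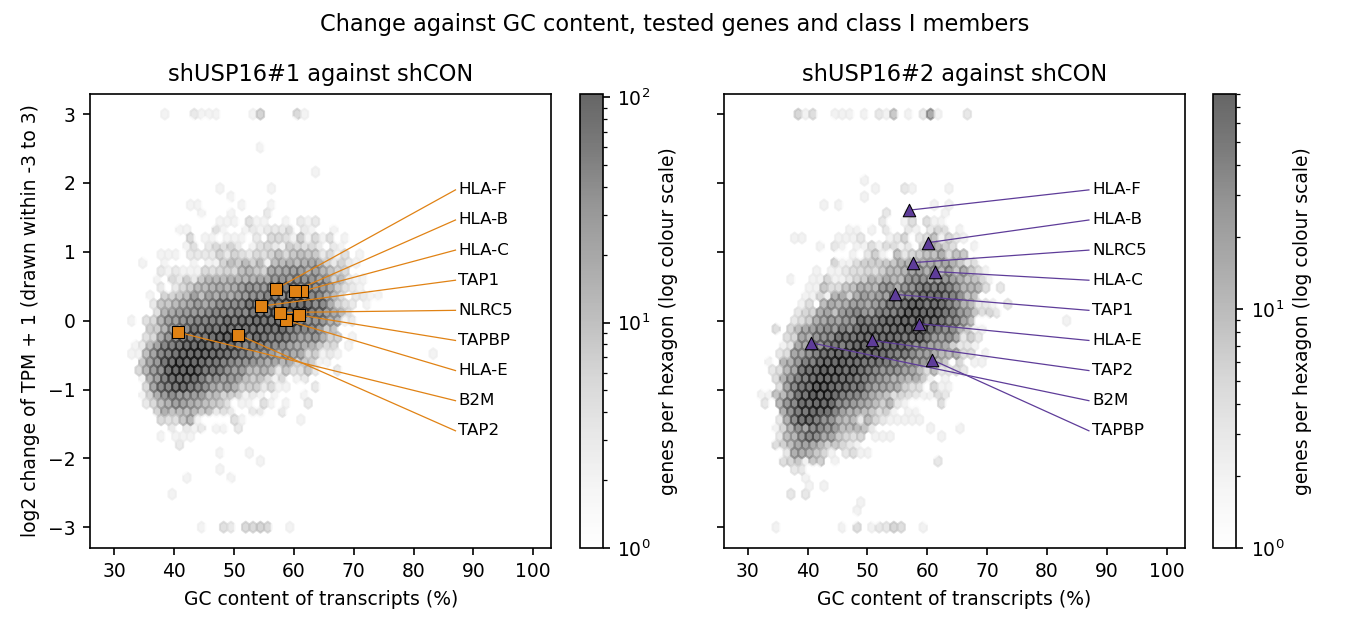
Change in log2(TPM + 1) against GC content of annotated transcripts for the tested genes (grey hexagons, darker for more genes on a log scale, values drawn within -3 to 3) and for the class I genes (coloured points with their names), shUSP16#1 on the left and shUSP16#2 on the right. Under shUSP16#2, HLA-F lies above most genes of like GC content, TAPBP lies below them, and HLA-C and TAP1 lie within the cloud.

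The genes whose pair of changes lay nearest to the pair of medians of the 9 genes, among 9293 others that averaged 5 TPM or more, were NTPCR, PMVK, FADS3, AC044860.1 and AL928654.3. Their distances on the log2 scale were 0.0145 to 0.0244.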

How the data were processed

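RNA sequencing was done on PC3 cells with shCON, shUSP16#1 or shUSP16#2, 1 library each, from total RNA extracted with TRIzol and prepared with a TruSeq kit. The authors deposited 1 table of TPM values per gene. The submitters' processing notes name CASAVA, HISAT2 and the hg19 build, and the quantification tool and annotation are not given in the sources used here. The table repeats 3 columns of per-sample values, which were not used. Samples were grouped by their titles. For a name with several entries the entry of highest mean TPM was kept, leaving 59719 names, of which the 13637 averaging 1 TPM or more were set against 1.5-fold. Changes were differences of log2(TPM + 1), computed with Python 3.11.15, numpy 2.4.6 and pandas 2.3.3 after a check on simulated data. Depth is unknown, and no test was possible with 1 library per condition. Coordinates, GC content and overlaps come from GENCODE 29 (GRCh38), which held 58516 of the identifiers, and promoters from RefSeq. PC3 alleles of the polymorphic heavy chains may align less well than the reference, which can affect levels between these genes. The genes named are the 9 members, pathway list genes, as a rule those averaging 1 TPM or more, USP16, cell type markers, the 5 nearest genes and genes whose exons overlap a member. The last were chosen with their values in view. The members and lists were chosen with earlier results of these data known. Alternatives were another pseudocount, centring, scaling over protein-coding genes, removal of the GC trend in 50 bins, summed rows, another minimum and a 2-fold threshold. Some genes of the lists are counted but not reported by name here.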

Additional observations from a re-analysis of the deposited data

Results flagged for a closer look

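HLA-E and TAPBP differed from shCON in opposite directions in the hairpin libraries. For HLA-E the shUSP16#1 library was above shCON by 0.01 and the shUSP16#2 library below it (-0.04), a difference of -0.051 between the hairpins on the log2(TPM + 1) scale. For TAPBP the shUSP16#1 library was above shCON by 0.08 and the shUSP16#2 library below it (-0.57), a difference of -0.65. The opposite directions were lost in HLA-E with the all-gene median subtracted (0.18 and 0.32), and in both genes with the GC trend removed and the all-gene median kept, where HLA-E was at -0.26 and -0.43 and TAPBP at -0.28 and -1.05. Each comparison has 1 library on each side, so the difference was not tested in either gene.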

How the results depend on the processing

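With no replicates, a value is said here to have moved where it changed sign or by over 1.5 times. The median change of the 9 genes (0.12 under shUSP16#1, 0.38 under shUSP16#2 and 0.17 between the hairpins) became 0.29, 0.75 and 0.38 after centring on the all-gene median, and 0.037, 0.18 and 0.093 after removal of the GC trend with the all-gene median (-0.17 and -0.37) added back, so that these keep the uncentred zero. Without adding it back, a setting chosen after seeing the data, they were 0.21, 0.55 and 0.30. With the median added back and the GC content of the transcript nearest the listed length, chosen after seeing the data, it became -0.0052, 0.071 and 0.052. A pseudocount of 0.1 gave 0.21 under shUSP16#1, and scaling over protein-coding genes gave 0.28 between the hairpins. The genes past 1.5-fold higher under shUSP16#1 went from 0 to 3 with centring (14.3% of all tested genes higher) and 1 (HLA-F) with the nearest transcript. Those under shUSP16#2 went from 4 to 2 with the GC trend removed and the median added back (4.57% of all tested genes higher and 31.6% lower), 1 with the nearest transcript and 2 at a 2-fold threshold. Lower genes under shUSP16#2 went from 0 to 1 with a pseudocount of 0.1, where 43.0% of all tested genes were lower. The count was likewise 1 with each removal of the GC trend, and the gene was TAPBP each time. Shares over all tested genes were not computed with the nearest transcript or at 2-fold. Summing TAP2 with AL669918.1 was also chosen after seeing the data. Of 144 values of single genes under the alternatives, 89 held and 55 moved, and of 48 pathway list values 27 held and 21 moved. The values that held include some that could not move. None of the 9 genes had more than 1 entry, so summing rows changed nothing. Summing TAP2 with AL669918.1 could change only TAP2 among single genes. Dropping the minimum could not change lists whose genes were all tested. Depth is unknown and limits NLRC5 and HLA-F most, which had the lowest levels. No paired analysis was possible because there were no replicates to pair.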

Other observations

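The class II pathway stood at low levels. Of 12 class II genes, 10 had a mean under 1 TPM, including the transactivator CIITA at 0.17 TPM in shCON, 0.22 TPM in shUSP16#1 and 0.34 TPM in shUSP16#2. The heavy chain gene HLA-DRA was at 0, 0.05 and 0 TPM in the same order. The exceptions were HLA-DMA, a peptide exchange factor, at 4.6 TPM in shCON, 7.16 TPM in shUSP16#1 and 9.0 TPM in shUSP16#2, and HLA-DOB, its modulator, at 0.92, 1.64 and 1.46 TPM. HLA-DMA was past 1.5-fold higher under shUSP16#2, with a log2 change of 0.84, where 7.32% of all tested genes were. Of 4 class I pseudogenes, 1 was tested, HLA-H, at 2.2 TPM in shCON, 3.38 TPM in shUSP16#1 and 2.98 TPM in shUSP16#2.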
